A study of Homo sapiens with 32 samples.

Results

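HDAC2 was silenced in HepG2 with an siRNA, and the transcripts of 4 treated arrays were compared with those of 4 arrays that had received a scrambled siRNA. The arrays were chosen by their titles, which name the siRNA or the control, the line and the siRNA experiment, and they are 8 of the 32 arrays of the series. HepG2 is a line grown from a hepatoblastoma, a liver tumour of childhood. The other arrays hold the same siRNA comparison in the hepatocellular carcinoma line Huh7, and SAHA (vorinostat, an inhibitor of histone deacetylases) against its solvent DMSO in both lines. No source used here gives the siRNA sequence, its dose or the hours between transfection and harvest. The treated group had HDAC2 siRNA and no other labelled agent, and the control group had scrambled siRNA and no other labelled agent. Whether replicate arrays stem from cultures grown apart is not stated, so the p-values measure the spread between arrays, which may be technical. RNA of whole cultures was read, so fewer cells of a kind and less RNA per cell cannot be told apart.

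HDAC2 is a class I histone deacetylase, an enzyme that takes acetyl groups off lysines of histone tails. It works inside the Sin3, NuRD and CoREST corepressor complexes, usually beside its close relative HDAC1, and these complexes are known for keeping bound genes silent. They also sit at active genes, so the loss of a deacetylase can lower transcripts as well as raise them. In liver tumour lines the class I deacetylases are known for holding down inhibitors of the cell cycle and for their part in lipid and glucose metabolism.

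All values below are log2 signals of the arrays after background correction and normalization, and a change is the mean of the 4 siRNA arrays minus the mean of the 4 scrambled arrays, with its standard error (SE). A gene was called, and is said to have risen or fallen, where the limma p adjusted over all 10038 tested genes was under 0.05. On the 8 arrays 48.3% to 50.3% of probes were above background and the median signal was 159.8 to 195.5 before normalization. All 10 liver line markers, among them ALB, AFP and APOA1, were detected on at least 4 of the 8 arrays. Of 14 leukocyte markers 5 were detected on at least 4 arrays and 8, PTPRC and CD3E among them, on none. Their summed signal ran from 10.62 to 11.01 on the siRNA arrays and from 10.48 to 10.64 on the scrambled arrays, and its part in the results was not tested. Of 14 fibroblast and endothelial markers 4 were detected on at least 4 arrays and 6 on none, with summed signals of 12.81 to 13.27 and 12.87 to 13.06. The number of arrays limits the precision of every value, and the smallest p that an exact two-sided permutation test of 4 against 4 can give is 0.0286.

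The HDAC2 transcript had signals of 7.90, 7.80, 8.25 and 7.75 on siRNA arrays 1 to 4, against 10.92, 11.15, 10.82 and 11.00 on the scrambled arrays. All treated arrays were far below all control arrays, and array 3 kept the most transcript. The mean fell by 3.05 (SE 0.14, limma adjusted p = 2.66e-06), and 12.1% of the transcript remained. HDAC1, the closest relative of HDAC2, had signals of 12.38, 12.68, 12.33 and 12.52 against 11.59, 11.78, 11.80 and 11.64. The groups did not overlap, and HDAC1 rose by 0.78 (SE 0.12, adjusted p = 0.00134). SIRT5, a mitochondrial deacylase of the sirtuin class, fell by 1.95 (SE 0.14, adjusted p = 2.35e-05), from 9.74, 9.86, 9.80 and 9.98 to 8.09, 8.02, 7.52 and 7.97. SIRT5 has 3 detected probes, and the other two moved by -0.76 and -0.50.

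Of 10 detected members of the HDAC family 1 rose and 3 fell, where 31.4% of all tested genes were called (15.7% rose and 15.6% fell). SIRT1, a nuclear deacetylase of the sirtuin class, had a change of -0.42 (SE 0.14, adjusted p = 0.0424) with overlapping arrays. Its call was lost in 12 of 23 alternatives, among them leaving out siRNA array 2, 3 or 4 or scrambled array 1, 2 or 4, with adjusted p between 0.0667 and 0.121. The class I enzyme HDAC3 did not pass (-0.10, adjusted p = 0.663), nor did the class II enzymes HDAC4 (-0.21, adjusted p = 0.326) and HDAC6 (0.15, adjusted p = 0.310). HDAC11 (0.07), SIRT2 (-0.15) and SIRT4 (0.07) did not pass either.

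**Figure D1:**
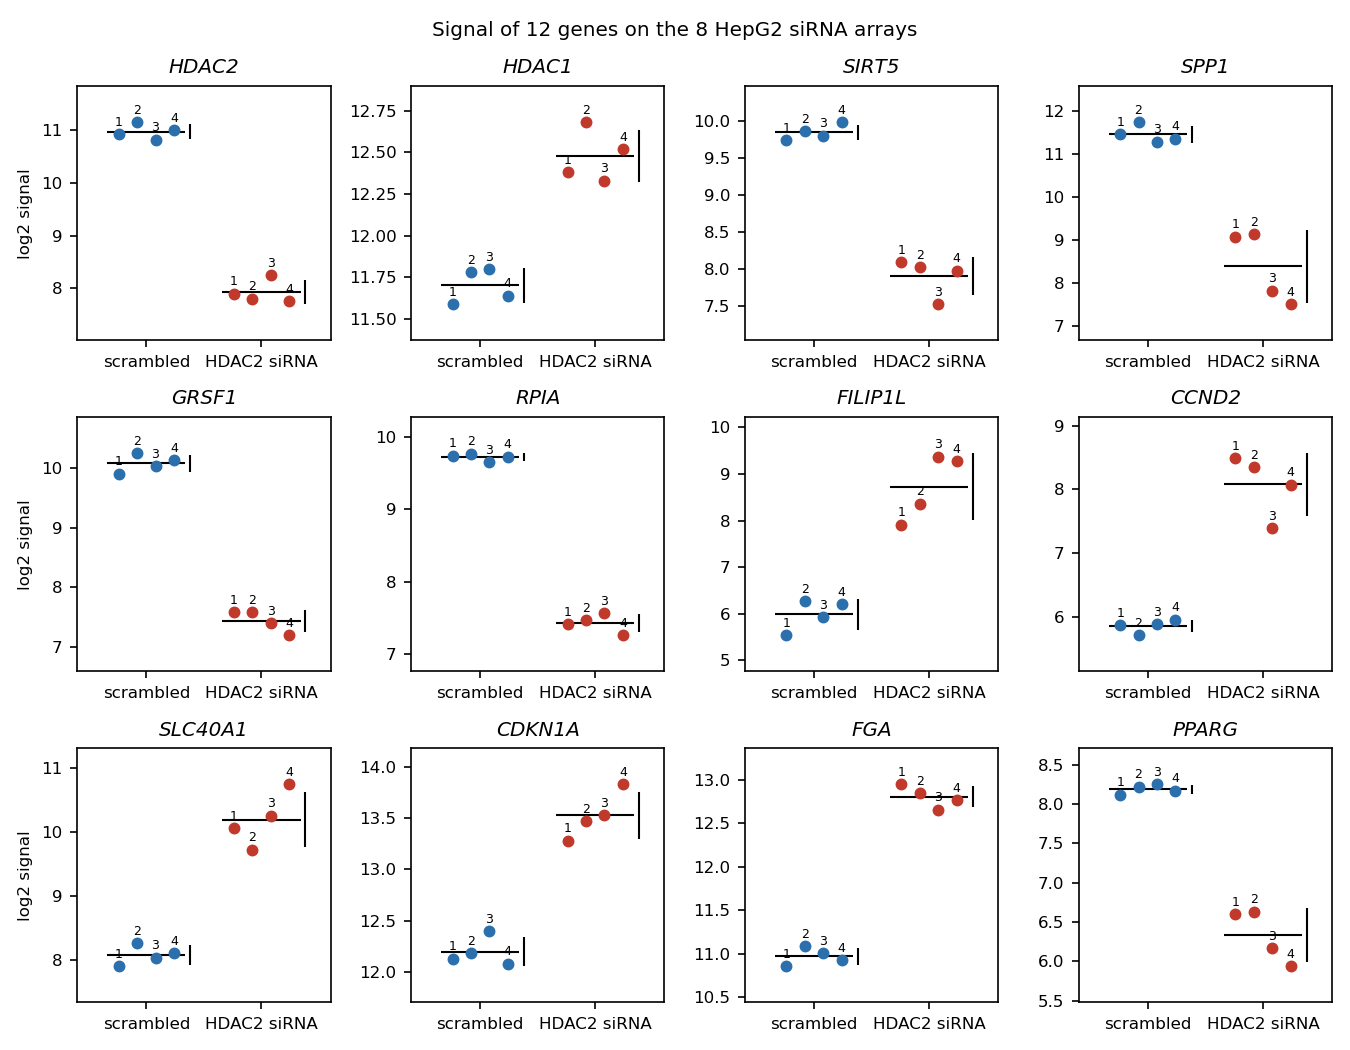
Log2 signal (vertical axis, a scale of its own in each panel) of 12 genes on the 4 scrambled (blue) and 4 HDAC2 siRNA (red) arrays of HepG2. Points carry the array number, horizontal lines are means and vertical lines are means ± SD (n = 4). For SPP1, arrays 3 and 4 lie below arrays 1 and 2, while RPIA is level over the 4 treated arrays.

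In the whole comparison 1579 genes rose and 1569 fell, and 545 of them, or 5.43% of the genes tested, changed at least 2-fold (211 rose and 334 fell). The siRNA and scrambled arrays did not overlap for 3267 genes (32.5%), and 2785 genes were both called and free of overlap. Leaving out 1 array at a time gave between 2311 and 3268 calls. In the plot of change against level, the named falls of over 2 log2 units ran from MRAP, at a mean level of 6.95, to the bright gene TGFBI. HDAC2 was among the largest of these falls.

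**Figure D2:**
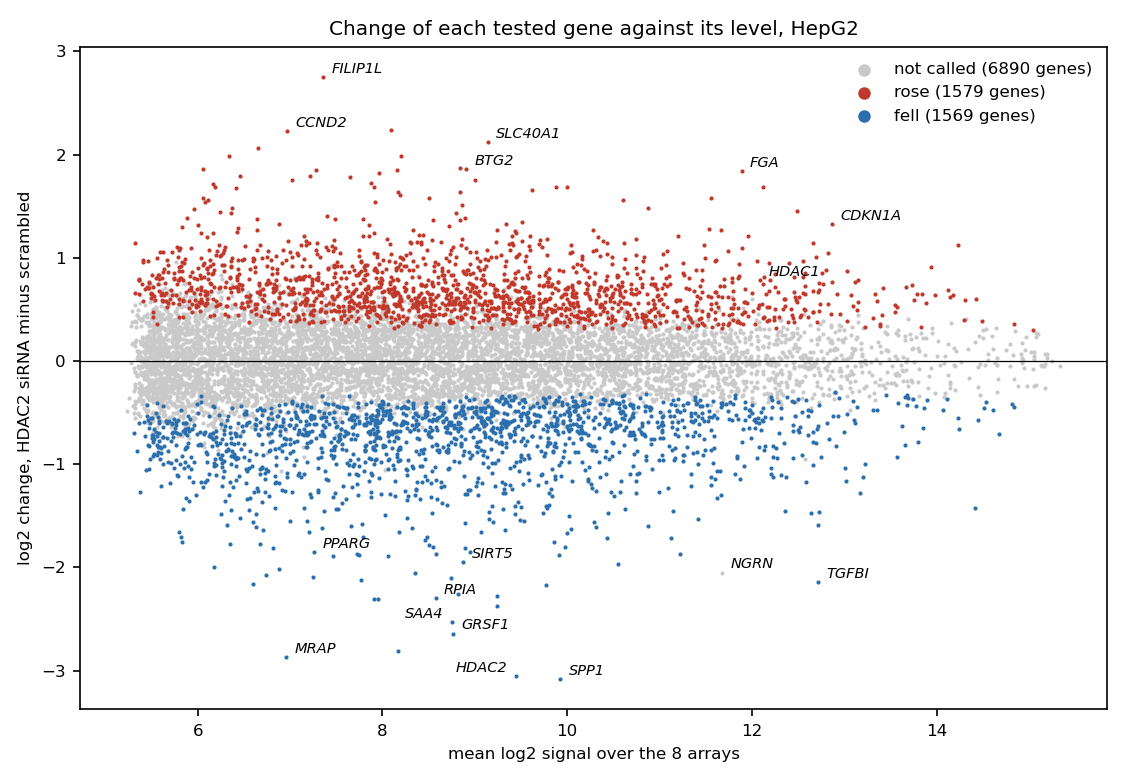
Change of each of the 10038 tested genes (vertical axis, log2, HDAC2 siRNA minus scrambled) against its mean log2 signal over the 8 arrays (horizontal axis). Red points rose (1579), blue points fell (1569), grey points were not called. HDAC2 and SPP1 lie at the bottom near -3, FILIP1L at the top at 2.75.

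The 4 siRNA arrays varied more among themselves than the arrays of any other group of the series. The median SD of a gene over the 4 arrays was 0.239, against 0.172 in the scrambled arrays and 0.123 to 0.175 in the other 6 groups. In 68.5% of genes the SD was larger on the siRNA arrays, by a median of 1.35 times. The range over 4 arrays was above 1 for 1221 genes on the siRNA arrays, 403 on the scrambled arrays and 29 to 395 in the other groups. Arrays 1 and 2 resembled each other (r = 0.9871 across genes), as did arrays 3 and 4 (r = 0.9856), while pairs across these had r between 0.9734 and 0.9771. The scrambled arrays had r between 0.9872 and 0.9894. The first principal component (55.2% of the variance) held the siRNA arrays apart from the scrambled arrays. The second component (16.6%) held siRNA arrays 1 and 2, at -18.4 and -24.7, apart from siRNA arrays 3 and 4, at 15.2 and 18.2.

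The labels name no batch that matches this pattern, and its origin was not tested. Among the 1221 genes of wide range 809 (66.3%) had arrays 1 and 2 both above (372) or both below (437) arrays 3 and 4. The same share over all tested genes was not taken. Of these 1221 genes 240 (19.7%) were called, beside 31.4% of all tested genes. A wide range on the siRNA arrays enlarges the SE of a change, so the choice of these genes itself lowers this share. The 211 rises of at least 2-fold had medians of 1.02, 1.12, 1.28 and 1.37 on arrays 1 to 4, and the 334 falls had medians of -1.16, -1.29, -1.32 and -1.37, values that the choice of these genes by their mean over the same arrays largely sets. Without siRNA arrays 1 and 2 the comparison called 3645 genes, 853 of them at least 2-fold, and without arrays 3 and 4 it called 2622 genes, 521 of them at least 2-fold.

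**Figure D3:**
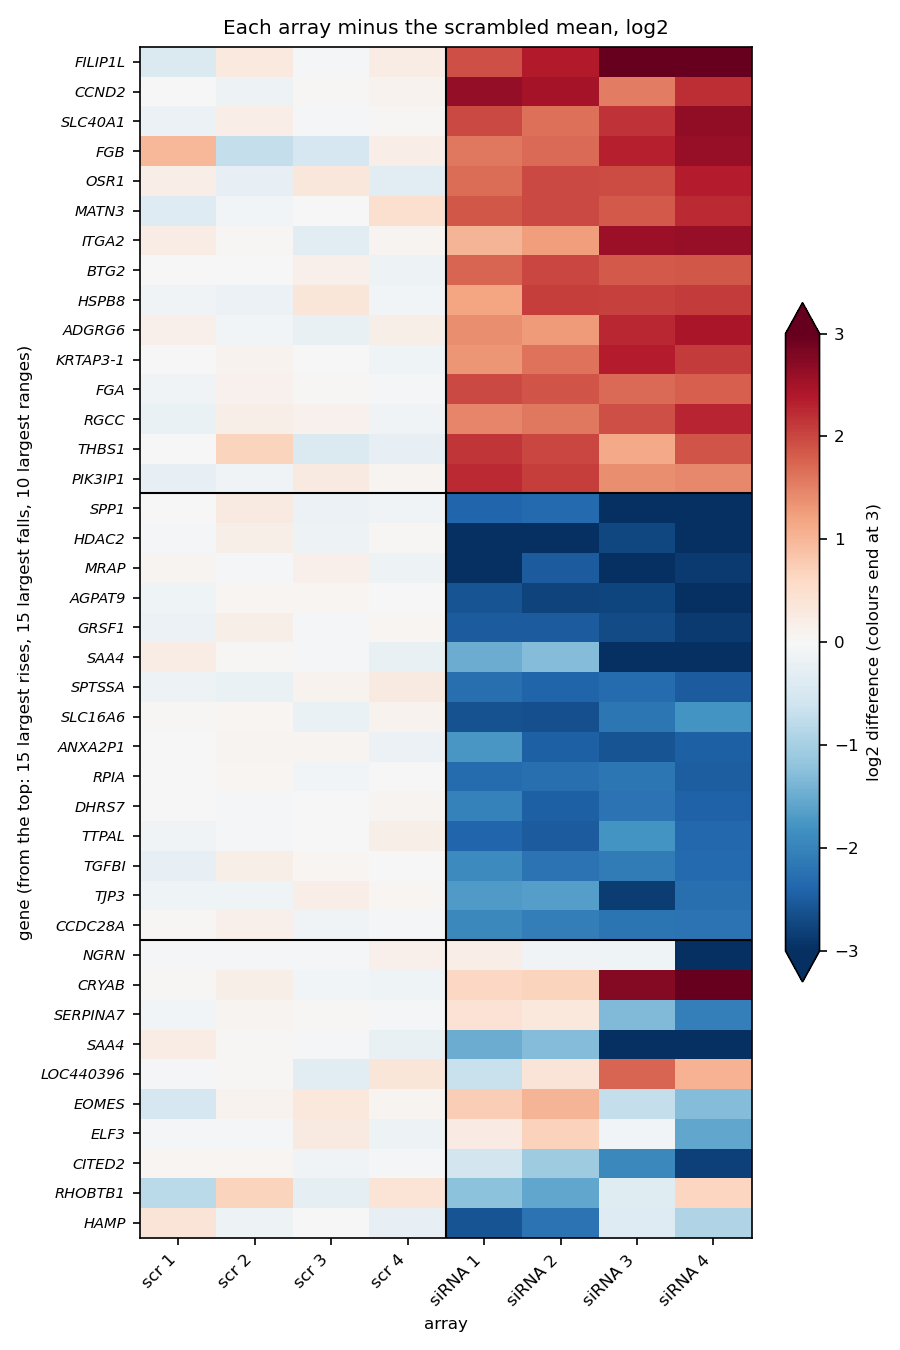
Each array minus the mean of the 4 scrambled arrays (colour, log2, ends at 3) for the 15 largest rises, the 15 largest falls and the 10 genes with the widest range among the siRNA arrays (rows). In the lowest block, siRNA arrays 1 and 2 differ from arrays 3 and 4 in CRYAB, SERPINA7, SAA4, EOMES and HAMP, and NGRN is low on array 4 alone.

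The largest falls were in genes of unrelated functions. SPP1, the gene of the secreted protein osteopontin, had signals of 9.08, 9.14, 7.82 and 7.51 on the siRNA arrays, against 11.46, 11.74, 11.29 and 11.36. It fell by 3.08 (SE 0.34, adjusted p = 0.000186), further on arrays 3 and 4 than on arrays 1 and 2. MRAP, which brings melanocortin receptors to the cell surface, fell by 2.87 (SE 0.15, adjusted p = 3.37e-06) and was above background on 1 of 4 siRNA arrays and on all scrambled arrays. AGPAT9, an acyltransferase of glycerolipid synthesis, had signals of 6.98, 6.80, 6.81 and 6.42 against 9.44, 9.62, 9.63 and 9.58. GRSF1, an RNA-binding protein of mitochondria, had signals of 7.58, 7.59, 7.40 and 7.20 against 9.91, 10.25, 10.03 and 10.13. AGPAT9 fell by 2.81 and GRSF1 fell by 2.64 (adjusted p = 2.66e-06 for each), and in both genes the treated arrays lay close together.

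RPIA, the ribose-5-phosphate isomerase of the pentose phosphate pathway, fell by 2.30 (SE 0.11, adjusted p = 2.66e-06), with 7.41, 7.47, 7.56 and 7.26 against 9.74, 9.77, 9.65 and 9.73. SPTSSA, a small subunit of the enzyme that starts sphingolipid synthesis, fell by 2.37 (adjusted p = 5.05e-06). SLC16A6, a member of the monocarboxylate transporter family, fell by 2.31 (adjusted p = 4.12e-05). DHRS7, an oxidoreductase gene, fell by 2.28 (adjusted p = 5e-06), CCDC28A by 2.10 (adjusted p = 5e-06) and TTPAL, named after its likeness to the vitamin E transfer protein, by 2.26 (adjusted p = 1.77e-05). The pseudogene ANXA2P1 fell by 2.31 (adjusted p = 2.97e-05), and its probe may also bind transcripts of the parent gene. TGFBI, a secreted matrix protein, was bright and fell by 2.14 from a mean of 13.79 ± 0.18 to 11.65 ± 0.18 (SD, n = 4, adjusted p = 1.1e-05). TJP3, a scaffold of tight junctions, fell by 2.12 (SE 0.24, adjusted p = 0.000216) and was lowest on siRNA array 3, at 5.97.

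FILIP1L, a filamin-binding protein gene, showed the largest rise. Its signals were 7.91, 8.36, 9.37 and 9.28 on the siRNA arrays and 5.54, 6.27, 5.92 and 6.20 on the scrambled arrays, a rise of 2.75 (SE 0.31, adjusted p = 0.000214). Its other two probes moved by 2.18 and 2.14. CCND2, the gene of cyclin D2, went from 5.87, 5.71, 5.88 and 5.95 to 8.49, 8.35, 7.39 and 8.07, and rose by 2.23 (adjusted p = 8.47e-05) with its weakest signal on array 3. SLC40A1, the iron exporter ferroportin, went from 7.91, 8.27, 8.04 and 8.11 to 10.06, 9.73, 10.26 and 10.75, a rise of 2.12 (adjusted p = 7.8e-05). BTG2, a gene that slows the cell cycle, rose by 1.86 (SE 0.12, adjusted p = 1.09e-05), with treated signals of 9.71, 9.97, 9.82 and 9.84.

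OSR1, a zinc finger transcription factor, rose by 1.99 (adjusted p = 7.96e-05). MATN3, a cartilage matrix protein, also rose by 1.99 (adjusted p = 7.52e-05), but was above background on 1 of the 4 scrambled arrays. ITGA2, a subunit of a collagen receptor, had signals of 8.92, 9.17, 10.48 and 10.52 against 8.13, 7.93, 7.58 and 7.98. It rose by 1.87 (SE 0.35, adjusted p = 0.00297), and arrays 3 and 4 were more than 1 unit above arrays 1 and 2. ADGRG6, an adhesion receptor, had the same order, with 8.63, 8.51, 9.50 and 9.68 (1.85, adjusted p = 0.000668). THBS1, the matrix protein thrombospondin 1, rose by 1.79 (adjusted p = 0.000966) and PIK3IP1, an inhibitor of PI3 kinase, by 1.79 (adjusted p = 0.000232), and both were higher on arrays 1 and 2. RGCC, named as a regulator of the cell cycle, rose by 1.82 (adjusted p = 0.000102), and KRTAP3-1, a keratin-associated protein gene, by 1.85 (adjusted p = 0.00019). HSPB8, a small heat shock protein, rose by 1.86 (adjusted p = 0.000235) and had a lower signal on siRNA array 1 (6.33) than on arrays 2 to 4 (7.20, 7.19 and 7.24). HSPB8 was above background on 1 and THBS1 on 2 of the 4 scrambled arrays.

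Fibrinogen, the clotting protein that hepatocytes secrete, is built of 3 chains, and the genes of all 3 rose. FGA had signals of 12.95, 12.85, 12.66 and 12.77 against 10.86, 11.09, 11.01 and 10.93, a rise of 1.84 (SE 0.12, adjusted p = 1.09e-05). FGG had 12.47, 12.17, 12.54 and 12.18 against 10.75, 11.02, 10.50 and 10.80, a rise of 1.58 (adjusted p = 7.8e-05). FGB had 7.21, 7.32, 7.95 and 8.24 against 6.62, 4.92, 5.13 and 5.83, a rise of 2.06 (SE 0.36, adjusted p = 0.0022), and was above background on 2 of the 4 scrambled arrays. For all 3 genes the groups did not overlap. The second probes of FGA and FGG rose by 2.33 and 2.82.

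The promoters of the 3 fibrinogen genes are shown since these genes rose together, and those of SAA4 and HAMP since these genes split the treated arrays. Each is a RefSeq sequence of GRCh38.p14 from 250 bases before to 50 bases after the gene's start. They lie at chr4:154590693-154590992 (FGA, minus strand), chr4:154562730-154563029 (FGB, plus strand), chr4:154612607-154612906 (FGG, minus strand), chr11:18236753-18237052 (SAA4, minus strand) and chr19:35282278-35282577 (HAMP, plus strand). FGB has 2 listed starts, and the one with the lower coordinate was used. Capitals mark letters that match GTTAAT (a core of HNF1 sites), TTGCNNAA (C/EBP) or TTCNNNGAA (STAT) on either strand, and no match overlapped another.
FGA: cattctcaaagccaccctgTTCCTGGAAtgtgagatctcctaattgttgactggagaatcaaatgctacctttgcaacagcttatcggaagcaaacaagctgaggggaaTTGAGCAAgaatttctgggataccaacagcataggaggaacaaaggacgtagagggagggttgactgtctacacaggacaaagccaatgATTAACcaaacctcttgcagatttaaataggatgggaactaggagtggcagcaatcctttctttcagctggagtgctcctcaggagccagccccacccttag
FGB: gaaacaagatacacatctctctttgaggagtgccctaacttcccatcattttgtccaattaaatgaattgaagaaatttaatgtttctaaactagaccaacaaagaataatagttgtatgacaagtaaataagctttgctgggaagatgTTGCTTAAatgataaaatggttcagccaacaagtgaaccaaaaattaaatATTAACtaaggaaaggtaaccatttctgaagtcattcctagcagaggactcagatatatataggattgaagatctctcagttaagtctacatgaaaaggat
FGG: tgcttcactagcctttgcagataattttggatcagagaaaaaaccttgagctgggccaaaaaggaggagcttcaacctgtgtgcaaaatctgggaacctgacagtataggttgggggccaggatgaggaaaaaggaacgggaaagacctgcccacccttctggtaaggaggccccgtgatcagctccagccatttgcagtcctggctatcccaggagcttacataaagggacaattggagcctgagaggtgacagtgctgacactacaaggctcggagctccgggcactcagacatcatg
SAA4: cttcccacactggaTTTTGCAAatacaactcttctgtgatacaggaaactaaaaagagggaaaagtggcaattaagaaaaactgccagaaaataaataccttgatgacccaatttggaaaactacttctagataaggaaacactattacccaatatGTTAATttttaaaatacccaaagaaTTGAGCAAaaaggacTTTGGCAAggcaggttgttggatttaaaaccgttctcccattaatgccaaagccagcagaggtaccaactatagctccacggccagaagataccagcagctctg
HAMP: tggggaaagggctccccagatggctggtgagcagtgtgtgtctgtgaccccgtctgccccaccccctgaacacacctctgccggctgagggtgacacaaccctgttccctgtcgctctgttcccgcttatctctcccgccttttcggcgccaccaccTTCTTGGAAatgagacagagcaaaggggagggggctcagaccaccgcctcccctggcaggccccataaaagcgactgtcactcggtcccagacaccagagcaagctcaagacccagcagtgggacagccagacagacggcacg
Counted in bases from the start, FGA holds a STAT match at -231, a C/EBP match at -141 and an HNF1 match at -52, and FGB a C/EBP match at -101 and an HNF1 match at -51. SAA4 holds C/EBP matches at -236, -69 and -54 and an HNF1 match at -94, HAMP a STAT match at -93, and FGG none of these letters. Over all 35116 promoters of this length, 6.88% hold the HNF1 letters, 10.5% the C/EBP letters and 7.66% the STAT letters. The matches describe letters, not bound sites.

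SAA4, a serum amyloid gene of the liver, had signals of 8.52, 8.72, 6.44 and 6.27 on siRNA arrays 1 to 4, against 10.23, 10.05, 9.99 and 9.79. It fell by 2.53 (SE 0.51, adjusted p = 0.00444), and arrays 3 and 4 lay about 2 units under arrays 1 and 2. HAMP, the gene of hepcidin, the hormone that closes ferroportin, had the opposite order, with 9.58, 9.95, 11.79 and 11.28 against 12.57, 12.03, 12.16 and 11.94. Its fall of 1.53 (SE 0.42, adjusted p = 0.0198) was not called without scrambled array 1 (-1.40, adjusted p = 0.0556). HP, the gene of the haemoglobin-binding protein haptoglobin, fell by 1.70 (adjusted p = 0.00217), with 8.13, 8.35, 6.82 and 7.23 against 9.24, 9.40, 9.49 and 9.19, again lowest on arrays 3 and 4.

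Of 40 tested genes of secreted and surface hepatocyte proteins 6 rose and 7 fell, with a median of -0.02 that lay between -0.02 and 0.13 over the scalings, beside 0.01 over all genes. ORM1, an acute-phase glycoprotein, fell by 0.93 (adjusted p = 0.000659). F5, coagulation factor V, rose by 0.97 (adjusted p = 0.000845), and TTR, the thyroxine carrier transthyretin, by 1.00 (adjusted p = 0.00132). The count depended on the treated arrays, with 12 falls without siRNA arrays 1 and 2 and 12 rises without arrays 3 and 4. Of 20 metabolic enzymes of hepatocytes 4 rose and 7 fell. The called shares were 32.5% for the secreted and surface genes and 55% for the enzymes, beside 31.4% of all tested genes. GSTA1, a glutathione transferase, fell by 1.32 (adjusted p = 0.00014), and CYP8B1, which sets the makeup of bile acids and was above background on 1 of the 4 siRNA arrays, by 1.00 (adjusted p = 0.000899). HGD, an enzyme of tyrosine breakdown, rose by 0.66 (adjusted p = 0.0028). The 4 rises were 2 without siRNA array 3 or any 1 of the scrambled arrays.

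Of 18 transcription factors of hepatocytes none rose and 6 fell, with a median of -0.34 that was -0.21, -0.06, -0.64 and -0.44 on siRNA arrays 1 to 4 and lay between -0.42 and -0.19 over the scalings. CEBPA, a factor of hepatocyte maturity, had signals of 11.93, 11.92, 11.97 and 12.18 against 13.08, 13.17, 13.23 and 13.22. It fell by 1.17 (SE 0.11, adjusted p = 8.96e-05), evenly over the arrays. NR1H4, the bile acid receptor FXR, had signals of 8.91, 8.80, 8.01 and 7.95 against 9.91, 10.02, 9.84 and 10.15 and fell by 1.56 (adjusted p = 0.000742). The orphan receptor NR2F1 fell by 0.69 (adjusted p = 0.00454), and PROX1, a homeobox factor of liver development, by 0.75 (adjusted p = 0.00595). Of 19 oncofetal liver genes 2 rose and 4 fell, the falls being 2 without siRNA array 2, scrambled array 1 or scrambled array 4 and the rises 1 without scrambled array 1. AKR1B10, an aldo-keto reductase often high in liver tumours, fell by 1.45 (adjusted p = 7.8e-05), and the fetal growth factor IGF2 by 0.75 (adjusted p = 0.00779). Beside 31.4% of all tested genes, 33.3% of the transcription factors and 31.6% of the oncofetal genes were called.

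The list of PPAR receptors, their coactivators and fatty acid oxidation held the largest number of falls among the metabolic lists, with 12 of 25 tested genes lower and 3 higher (median -0.18). Its called share was 60%, beside 31.4% of all tested genes. PPARG, a receptor that drives lipid storage, had signals of 6.60, 6.63, 6.17 and 5.94 against 8.12, 8.22, 8.25 and 8.17. It fell by 1.85 (SE 0.16, adjusted p = 6.02e-05) and was lowest on arrays 3 and 4. Its coactivator PPARGC1A fell by 0.93 (adjusted p = 0.00131). The peroxisomal oxidation gene EHHADH fell by 1.13 (adjusted p = 0.000204). The mitochondrial oxidation genes HADHA (1.01, adjusted p = 0.000289) and ACADS (0.89, adjusted p = 0.00163) rose. Without siRNA arrays 3 and 4 the list held 7 falls and 5 rises.

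Of 23 genes of fatty acid synthesis and storage 2 rose and 8 fell, with 5 falls without scrambled array 4 and 1 rise without siRNA array 4 or scrambled array 1, 3 or 4. GPAM and AGPAT2, acyltransferases of triglyceride synthesis, fell by 1.75 (adjusted p = 0.00013) and 1.80 (adjusted p = 0.000156), and LPIN1, a phosphatase of the same route, by 0.87 (adjusted p = 0.000475). MLXIPL, a glucose-sensing transcription factor, rose by 1.02 (adjusted p = 0.00206) by its brighter probe, while its other probe moved by -0.16 and the mean of both probes did not pass (0.43, adjusted p = 0.058). Of 21 genes of cholesterol synthesis and uptake 4 rose and 4 fell. The called shares were 43.5% for fatty acid synthesis and storage and 38.1% for the cholesterol genes, beside 31.4% of all tested genes. SQLE (squalene epoxidase) and IDI1 (an isoprenoid isomerase) fell by 1.14 (adjusted p = 0.0001) and 1.24 (adjusted p = 0.000142), and DHCR7, which makes cholesterol from its last precursor, rose by 0.67 (adjusted p = 0.00197). The 4 rises were 2 without siRNA array 3 or scrambled array 1, 2 or 3.

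Among 21 genes of glycolysis and glucose transport 2 rose and 5 fell. Called were 33.3% of these, 60% of the gluconeogenesis genes and 40% of the insulin and mTOR genes, beside 31.4% of all tested genes. The liver glucose transporter SLC2A2 fell by 1.30 (adjusted p = 0.000155), with 8.55, 8.28, 8.21 and 8.47 against 9.66, 9.59, 9.50 and 9.96. The high-affinity transporter SLC2A3, a bright gene, rose by 1.12 (adjusted p = 0.000205), with 14.76, 14.76, 14.68 and 14.95 against 13.54, 13.52, 13.73 and 13.88. In both the groups lay apart. TXNIP, a glucose-induced inhibitor of thioredoxin, rose by 1.54 (adjusted p = 0.00151), and the glycolytic enzymes LDHA and PKM fell by 0.81 (adjusted p = 0.00187) and 0.61 (adjusted p = 0.00313). Of 5 gluconeogenesis genes tested, SLC37A4, which carries glucose 6-phosphate into the endoplasmic reticulum, rose by 0.70 (adjusted p = 0.00126), while PCK2, the mitochondrial PEP carboxykinase, fell by 0.78 (adjusted p = 0.00207) together with PPARGC1A. Of 20 genes of insulin and mTOR signalling 4 rose and 4 fell, the falls being 2 without scrambled array 1. IGFBP1, a secreted IGF binding protein, had the largest fall among them, by 1.87 (SE 0.16, adjusted p = 5.64e-05), with 10.57, 10.54, 10.14 and 9.89 against 12.06, 12.26, 12.19 and 12.11.

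Cell cycle genes moved in both directions. Of 17 inhibitors 5 rose and 2 fell (median 0.28, between 0.16 and 0.31 over the scalings). CDKN1A, the inhibitor p21, had signals of 13.28, 13.47, 13.53 and 13.83 against 12.13, 12.18, 12.40 and 12.08. It rose by 1.33 (SE 0.14, adjusted p = 0.000142), while a second, dim probe moved by -0.37. CDKN3, a phosphatase that acts on cyclin-dependent kinases, and RB1, the retinoblastoma gene, fell by 1.03 (adjusted p = 0.00208) and 1.11 (adjusted p = 0.00209). RB1 was above background on 3 of the 4 siRNA arrays. Of 14 genes of G1 cyclins and E2F factors 4 rose and 3 fell. The called shares were 41.2% for the inhibitors and 50% for this list, beside 31.4% of all tested genes. Beside CCND2, the cyclin genes CCND1 and CCNE1 rose by 0.91 (adjusted p = 0.00126) and 0.68 (adjusted p = 0.00198). SKP2, which marks p27 for breakdown, fell by 1.71 (adjusted p = 0.000206), and CDK4, the partner of D cyclins, by 1.12 (adjusted p = 0.00025).

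Of 42 DNA replication genes 3 rose and 8 fell, and of 39 mitosis genes 1 rose and 4 fell (medians -0.14 and -0.25). The first median was -0.03 when the arrays were scaled to one median. Both shares of called genes (26.2% and 12.8%) are below the 31.4% over all genes. MCM10, a factor that starts replication forks, fell by 1.25 (adjusted p = 0.000288) and TK1, thymidine kinase, by 0.72 (adjusted p = 0.00692), while PRIM2, a primase subunit above background on 1 of the 4 scrambled arrays, rose by 1.01 (adjusted p = 0.00629) and ORC6, of the origin complex, by 0.64 (adjusted p = 0.00732). CCNA2, cyclin A2, fell by 0.86 (adjusted p = 0.000525) and NDC80, of the kinetochore, by 0.96 (adjusted p = 0.00415). Leaving out 1 array gave between 4 and 8 falls in DNA replication, with 5 or fewer without siRNA array 3 or 4 or any 1 scrambled array. In mitosis it gave between 2 and 8 falls, with 8 without siRNA array 1, 7 without siRNA array 3 and 2 without scrambled array 2, 3 or 4, and none rose without siRNA array 3 or scrambled array 1, 2 or 4.

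Of 23 p53 targets 7 rose and 1 fell, with a median of 0.35 that was 0.36, 0.20, 0.20 and 0.41 on arrays 1 to 4 and lay between 0.22 and 0.42 over the scalings, and 2 fell without siRNA array 3, siRNA array 4 or scrambled array 4. Beside BTG2 and CDKN1A, the oxidoreductase gene TP53I3 went from 10.28, 10.33, 10.41 and 10.31 to 11.30, 11.39, 11.37 and 11.31 (1.01, adjusted p = 0.000117). TIGAR, a regulator of sugar phosphates, rose by 0.83 (adjusted p = 0.0019). TNFRSF10B, a death receptor, rose by 0.62 (adjusted p = 0.00215), and its other two probes moved by -0.03 and 1.45. Of 21 pro-apoptotic genes 3 rose and 1 fell, and 2 fell without siRNA array 1. BAK1, a pore protein of mitochondria, rose by 1.11 (adjusted p = 0.00635), and CYCS, cytochrome c, fell by 1.61 (adjusted p = 0.00202). CYCS was above background on 3 of the 4 siRNA arrays, and its change ran from -2.03 to -0.74 over the alternatives. Of 9 anti-apoptotic genes 2 rose and none fell, and 1 rose without siRNA array 3 or 4 or any 1 scrambled array. CFLAR, an inhibitor of caspase 8, rose by 0.53 (adjusted p = 0.00589). Called were 34.8% of the p53 targets, 19% of the pro-apoptotic and 22.2% of the anti-apoptotic genes, beside 31.4% of all tested genes.

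Of 33 genes of corepressor complexes 6 rose and 6 fell, and 3 rose without scrambled array 1, 2 or 4. The median of -0.09 turned to 0.01 when the arrays were scaled to one median. The reader of methylated DNA MBD2, which joins NuRD complexes, rose most, by 1.48 (adjusted p = 9.7e-05), and was above background on 3 of the 4 scrambled arrays. The NuRD subunit MTA2 fell by 0.87 (adjusted p = 0.00275), and the Sin3 subunits SAP30 and ING1 by 1.21 (adjusted p = 0.00278) and 1.08 (adjusted p = 0.00531). Among 21 genes that encode histones 4 rose and 4 fell, and 2 fell without scrambled array 1, 2 or 4. The linker histone gene H1-2 had signals of 9.18, 9.42, 8.92 and 8.97 against 7.98, 7.96, 7.99 and 7.88 and rose by 1.17 (adjusted p = 0.000214). H4C8 rose by 0.85 (adjusted p = 0.00717) and was above background on 3 of the 4 scrambled arrays. H2BC12 was above background on no scrambled array and rose at least 1.23-fold (adjusted p = 0.0111), and the replacement variant H2AX fell by 0.66 (adjusted p = 0.00591). Probes of histone genes can bind close relatives. Beside 31.4% of all tested genes, 36.4% of the corepressor genes and 38.1% of the histone genes were called.

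Metallothioneins, small proteins that bind zinc and copper, had the highest share of rises among the lists with 8 or more tested members, with 5 of 9 higher and none lower. Their called share was 55.6%, beside 31.4% of all tested genes. Their median of 0.71 was 0.45, 0.50, 0.67 and 0.50 on arrays 1 to 4 and lay between 0.66 and 0.80 over the scalings. MT1M rose by 1.51 (adjusted p = 0.00088), with 9.28, 9.34, 10.01 and 9.85 against 8.63, 7.80, 8.13 and 7.88. MT1E rose by 0.87 (adjusted p = 0.000617), MT1A by 0.74 (adjusted p = 0.00485), MT2A by 0.71 (adjusted p = 0.00991) and MT1H by 0.74 (adjusted p = 0.0134). The arrays of MT1H overlapped, and it did not pass without siRNA arrays 1 and 2 (0.59, adjusted p = 0.0696). The genes are near copies of each other, so their probes may share transcripts.

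Of 27 genes of the integrated stress and unfolded protein responses 5 rose and 10 fell, and 6 fell without scrambled array 2. ATF3, a stress-induced transcription factor, rose by 1.31 (adjusted p = 0.00105), with 8.90, 9.08, 9.72 and 9.78 against 8.10, 8.15, 7.97 and 8.01. PPP1R15A, which restores translation after stress, rose by 1.02 (adjusted p = 0.00255). The endoplasmic reticulum genes ERN1, a stress sensor, DNAJB9, a cochaperone, and PDIA4, an isomerase, fell by 0.86 (adjusted p = 0.00171), 0.97 (adjusted p = 0.00415) and 0.68 (adjusted p = 0.0027). Of 19 serine, folate and one-carbon enzymes none rose and 6 fell (median -0.20, between -0.20 and -0.09 over the scalings), and 1 rose without siRNA array 3. MTHFD2, a mitochondrial folate enzyme, fell by 1.80 (SE 0.12, adjusted p = 1.47e-05), with 9.07, 8.93, 9.11 and 9.18 against 10.88, 11.05, 10.88 and 10.69. PSAT1, of serine synthesis, fell by 0.94 (adjusted p = 0.00243). The called shares were 55.6% for the stress response genes and 31.6% for the one-carbon enzymes, beside 31.4% of all tested genes.

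Of 18 heat shock genes 4 rose and 5 fell, with a median of -0.02 that lay between -0.06 and 0.08 over the scalings, and there were 3 falls without any single array other than scrambled array 3 and 2 rises without siRNA array 3, scrambled array 1 or scrambled array 3. HSPA1B and HSPA1A, inducible chaperones whose probes may share transcripts, fell by 0.62 (adjusted p = 0.00154) and 0.86 (adjusted p = 0.0023), and HSPB1 rose by 0.60 (adjusted p = 0.00287). Of 20 NRF2 targets 3 rose and 5 fell, and 3 fell without siRNA array 2 or 3 or scrambled array 2, 3 or 4. NQO1, a quinone reductase, had signals of 12.35, 12.58, 12.38 and 12.80 against 13.70, 13.84, 13.87 and 13.83 and fell by 1.28 (adjusted p = 0.000109). The exporter ABCC3 fell by 1.05 (adjusted p = 0.000323). Beside 31.4% of all tested genes, 50% of the heat shock genes and 40% of the NRF2 targets were called.

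Of 21 mesenchymal and matrix genes 10 rose and 2 fell (median 0.43, between 0.22 and 0.44 over the scalings), and of 13 epithelial genes 6 rose and none fell (median 0.30). The 2 matrix genes that fell, TGFBI and LOX, an enzyme that crosslinks collagen (-1.39, adjusted p = 0.000109), had the smallest adjusted p of that list. TAGLN, an actin-binding protein, rose by 1.14 (adjusted p = 0.00018), with 13.25, 13.44, 13.18 and 13.06 against 11.97, 12.06, 12.28 and 12.07. The integrin subunit ITGB5 rose by 0.81 (adjusted p = 0.000525) and CCN1, a matricellular protein, by 1.21 (adjusted p = 0.00167). The tight junction gene CLDN1 rose by 1.21 (adjusted p = 0.000779), the keratins KRT8 and KRT19 by 0.66 (adjusted p = 0.00242) and 0.75 (adjusted p = 0.00252), and SPINT1, an inhibitor of HPN and related proteases, by 0.89 (adjusted p = 0.00273), SPINT1 being above background on 1 of the 4 scrambled arrays. Leaving out siRNA array 4 gave 1 fall among the epithelial genes. The called shares were 57.1% for the mesenchymal and matrix genes and 46.2% for the epithelial genes, beside 31.4% of all tested genes.

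**Figure D4:**
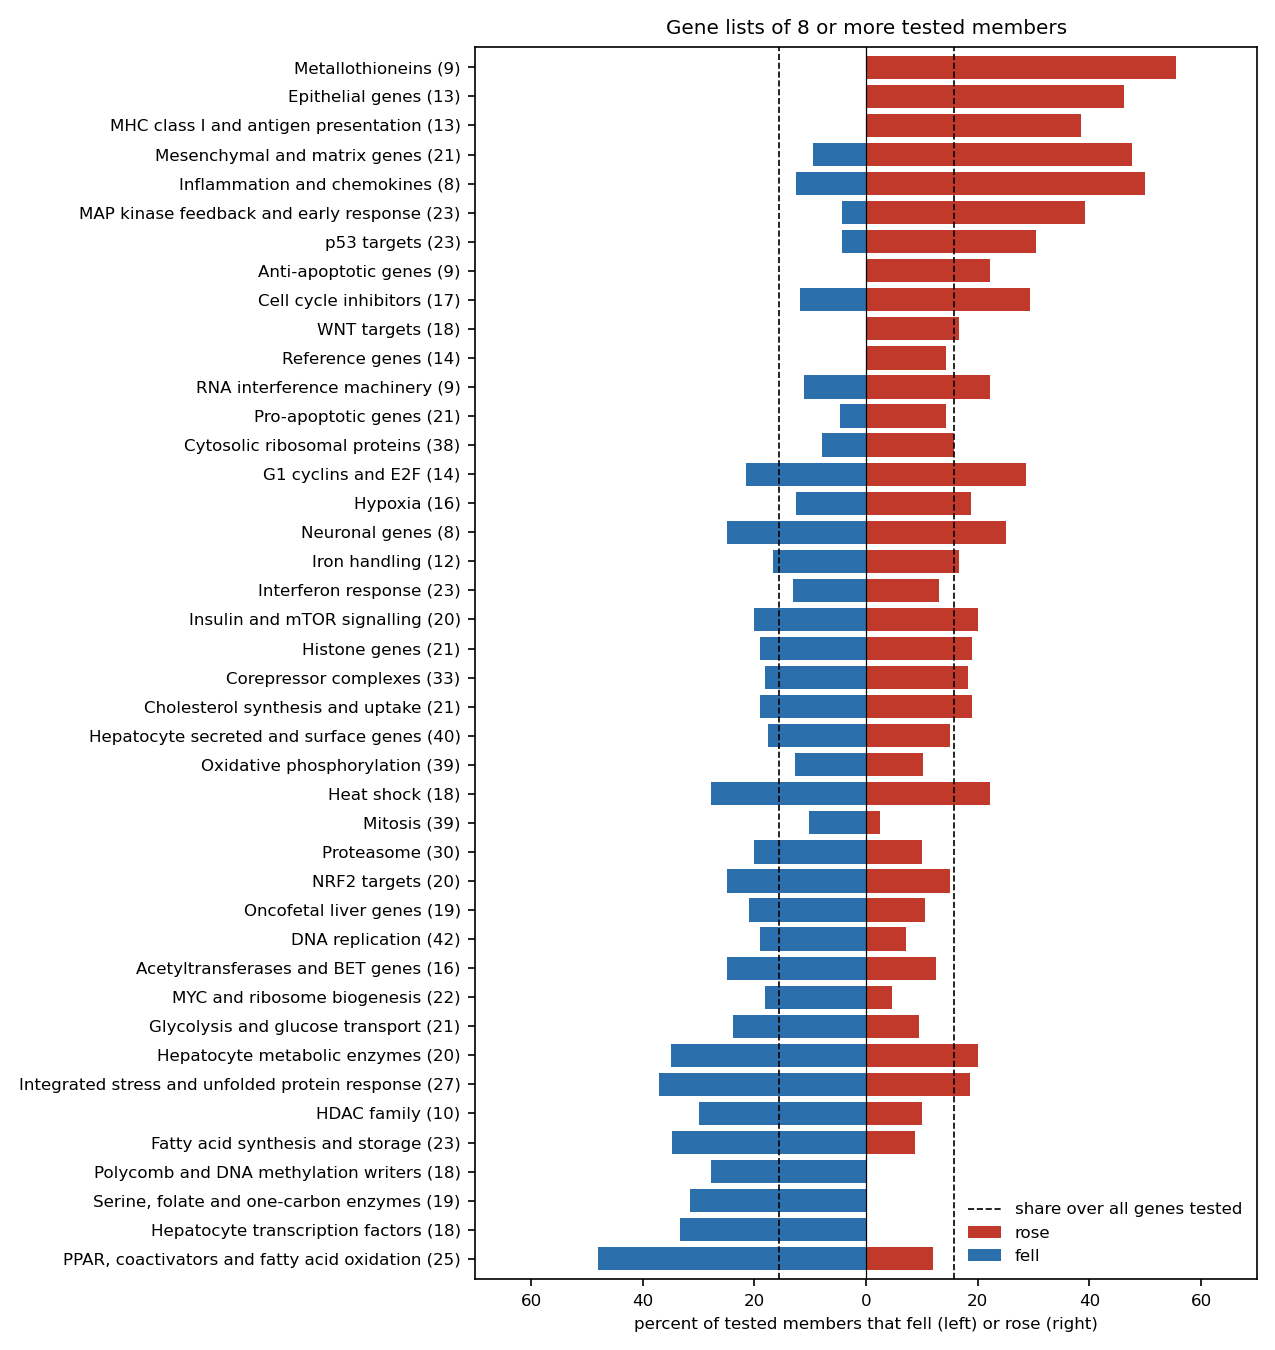
Share of the tested members of each gene list (number in brackets) that rose (red, right) or fell (blue, left), in percent. Dashed lines mark the shares over all tested genes, 15.7% and 15.6%. Metallothioneins stand at the top with 5 of 9 higher, and PPAR and fatty acid oxidation genes at the bottom with 12 of 25 lower.

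Of 23 genes of MAP kinase feedback and the early response 9 rose and 1 fell (median 0.41), and 5 rose without siRNA array 4, scrambled array 1 or scrambled array 3. The fall became 2 without siRNA array 4 and none without siRNA array 2 or 3 or scrambled array 2, 3 or 4. The receptor tyrosine kinase EPHA2 rose by 1.04 (adjusted p = 0.000789), and the MAP kinase phosphatases DUSP1 and DUSP5 by 0.85 (adjusted p = 0.00104) and 1.13 (adjusted p = 0.00366). Of 13 genes of MHC class I and antigen presentation 5 rose and none fell (median 0.30, between 0.22 and 0.48 over the scalings), and 1 fell without siRNA array 2. B2M, the light chain of these molecules, rose by 0.73 (adjusted p = 0.0021) and HLA-E by 0.76 (adjusted p = 0.00298). Of 8 detected genes of inflammation 4 rose and 1 fell. Called were 43.5% of the MAP kinase list, 38.5% of the MHC list and 62.5% of the inflammation list, beside 31.4% of all tested genes. CXCL8, a chemokine for neutrophils, rose by 1.64 (adjusted p = 0.000294), with 10.11, 9.71, 9.07 and 9.76 against 8.08, 8.17, 7.96 and 7.88, and the cytokine IL18 rose by 0.97 (adjusted p = 0.00415). The chemokine CCL20 fell by 1.07 (adjusted p = 0.00163). CD14, a leukocyte marker that liver cells also express, fell by 0.64 (adjusted p = 0.005).

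Of 23 interferon response genes 3 rose and 3 fell. The list's median differed between the treated arrays, with 0.08 and 0.33 on arrays 1 and 2 and -0.33 and -0.30 on arrays 3 and 4, and 7 genes fell without arrays 1 and 2. MX1 and MX2, neighbouring antiviral genes, moved in opposite directions, MX1 by 1.01 (adjusted p = 0.00254) and MX2 by -1.30 (adjusted p = 0.000156). Of 16 hypoxia genes 3 rose and 2 fell, and 1 rose without scrambled array 1. VEGFA, the vascular growth factor, rose by 1.12 (adjusted p = 0.00176). Of 18 WNT targets 3 rose and none fell, the growth factor BMP4 (0.73, adjusted p = 0.00129), the receptor regulator RNF43 (0.88, adjusted p = 0.00311) and CCND1, and 1 fell without siRNA array 1, 3 or 4. Called were 26.1% of the interferon genes, 31.2% of the hypoxia genes and 16.7% of the WNT targets, beside 31.4% of all tested genes.

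The general machinery of the cell moved in both directions. Of 38 cytosolic ribosomal protein genes 6 rose and 3 fell (median 0.15), of 39 oxidative phosphorylation genes 4 rose and 5 fell, and of 22 genes of MYC and ribosome biogenesis 1 rose and 4 fell, shares of 23.7%, 23.1% and 22.7% beside 31.4%. RPL23 (0.65, adjusted p = 0.0023), RPL4 (0.65, adjusted p = 0.00248) and RPS4X (0.72, adjusted p = 0.00471) of the ribosome rose, and scaling each array to one median raised that list's median to 0.49. Of the respiratory chain, the complex I genes NDUFA10 (0.84, adjusted p = 0.000593) and NDUFV1 (0.88, adjusted p = 0.00151) rose, and NDUFV2 (-0.84, adjusted p = 0.000979) and NDUFS1 (-1.14, adjusted p = 0.0035) fell. PA2G4, a growth regulator of the nucleolus, fell by 0.96 (adjusted p = 0.000173) and DKC1, of small nucleolar RNPs, by 0.57 (adjusted p = 0.00428), and CAD, which starts pyrimidine synthesis, rose by 0.83 (adjusted p = 0.00172). Of 30 proteasome genes 3 rose and 6 fell, with PSMD8 (0.80, adjusted p = 0.00151) and PSMD3 (0.92, adjusted p = 0.00348) higher and PSMA2 (-0.89, adjusted p = 0.00215) lower. The falls were fewer with an array left out, 3 in the proteasome without scrambled array 1, 2 or 4, 2 in oxidative phosphorylation without siRNA array 4 or scrambled array 1 or 2, 3 there without siRNA array 2, and 1 in the ribosome without any single array other than siRNA array 1. Of MYC and ribosome biogenesis 2 rose without siRNA array 4 or scrambled array 4. The called share of the proteasome genes was 30%, beside 31.4% of all tested genes.

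The 10 genes with the widest range among the treated arrays are described here without a test of that range. NGRN, a mitochondrial ribosome assembly gene, had 12.91, 12.60 and 12.58 on arrays 1 to 3 and 4.54 on array 4, against 12.66, 12.65, 12.65 and 12.85, and was not called (adjusted p = 0.338), while its other probe moved by 0.37. CRYAB, a small heat shock protein, had 7.38, 7.42, 9.50 and 9.85 against 6.79, 6.93, 6.68 and 6.62. Its call (1.78, SE 0.51, adjusted p = 0.0232) was lost without siRNA array 3 (adjusted p = 0.0612) or scrambled array 1, 3 or 4 (adjusted p between 0.0503 and 0.0546). SERPINA7, the carrier of thyroid hormone in plasma, had 9.62, 9.52, 7.86 and 7.15 against 9.11, 9.28, 9.22 and 9.17, so arrays 1 and 2 were above all scrambled arrays and arrays 3 and 4 below. EOMES, a T-box transcription factor, showed the same, with 7.27, 7.55, 5.81 and 5.23 against 6.04, 6.65, 6.84 and 6.61. Neither was called over the 4 arrays (adjusted p = 0.314 and 0.917). EOMES was above background on 3 of the 4 siRNA arrays.

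CITED2, a transcriptional coregulator, had 8.01, 7.51, 6.64 and 5.77 against 8.63, 8.62, 8.47 and 8.54 and fell by 1.58 (SE 0.39, adjusted p = 0.0115). The epithelial factor ELF3 had 7.53, 7.98, 7.21 and 5.72 against 7.23, 7.22, 7.56 and 7.12, low on array 4 alone. RHOBTB1 had 5.24, 4.91, 6.10 and 7.13 against 5.67, 7.14, 6.21 and 6.88, and LOC440396 had 4.94, 6.00, 7.37 and 6.65 against 5.55, 5.66, 5.27 and 5.98. RHOBTB1 was above background on 2 of the 4 siRNA arrays, and its range on the scrambled arrays was 1.46. LOC440396 was above background on 3 of the 4 siRNA and 3 of the 4 scrambled arrays, so both ranges include signals at background. LOC440396 passed without siRNA array 1 (1.06, adjusted p = 0.0225) but not over all 4 (0.62, adjusted p = 0.281). SAA4 and HAMP, described above, complete the 10.

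The same siRNA comparison in Huh7 shows which of these changes differ between the lines. Each line has scrambled arrays of its own, and the difference (HepG2 change minus Huh7 change) was tested for every gene and called for 3947 genes (39.3%), with the HepG2 change higher in 2037 and lower in 1910. In Huh7 itself 4973 genes (49.5%) were called, in a fit that held the siRNA and scrambled arrays of both lines. The HepG2 calls come from a fit of the HepG2 arrays alone. Counts and shared percentages from such unlike fits do not show which line responded more widely. With all 32 arrays in one fit, 4678 genes were called in HepG2. Of the 1579 genes that rose in HepG2, 649 (41.1%) also rose in Huh7, where they were 26.5% of the rises and where 24.4% of all tested genes rose, and 232 fell. Of the 1569 that fell in HepG2, 767 (48.9%) also fell in Huh7, or 30.4% of its falls, where 25.2% of all tested genes fell, and 216 rose. The line difference was called for 368 of the 545 genes changed at least 2-fold in HepG2 (67.5%), which were picked on the HepG2 change that the difference contains.

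HDAC2 fell in both lines, by 3.05 in HepG2 and 3.34 in Huh7, and the difference of 0.30 (SE 0.16) was not called (adjusted p = 0.152). For 10 of the 15 largest falls in HepG2, the targeted gene HDAC2 included, the line difference was not called. It was called for all of the 15 largest rises, a contrast between the lists that was not itself tested. Of the 15 falls 12, HDAC2 included, also fell in Huh7, TJP3 rose there and 2 were not called. The changes in HepG2 and Huh7 were -2.64 and -2.78 for GRSF1, -2.81 and -2.57 for AGPAT9, -2.14 and -2.32 for TGFBI, and -2.10 and -2.29 for CCDC28A. In SIRT5 they were -1.95 and -1.77. RPIA and DHRS7 fell further in Huh7, with changes there of -3.10 (difference 0.80, adjusted p = 0.00201) and -2.66 (difference 0.39, adjusted p = 0.0441). MRAP and SLC16A6 were the 2 falls not called in Huh7, with changes there of -0.03 and 0.00 and line differences of -2.84 (adjusted p = 6.82e-08) and -2.31 (adjusted p = 7.7e-07). Of the 15 largest rises 6 also rose in Huh7, 2 fell there and 7 were not called there, and the line difference was higher for 14 and lower for PIK3IP1. PIK3IP1 rose by 3.15 in Huh7 (difference -1.36, adjusted p = 0.000198), FILIP1L by 1.57 (difference 1.18, adjusted p = 0.0237) and BTG2 by 1.23 (difference 0.62, adjusted p = 0.00595). CCND2 moved by 0.03 in Huh7 and SLC40A1 by 0.30, neither called there. Their line differences were 2.20 (adjusted p = 2.73e-06) and 1.81 (adjusted p = 1.06e-05). Probes were kept by detection on the HepG2 siRNA and scrambled arrays alone, and detection in Huh7 was not tested. For a gene at background in Huh7, a small change there would not show that the siRNA had no effect. This limit holds for MRAP, SLC16A6, CCND2 and every other gene with little change in Huh7. FGA rose by 1.84 in HepG2 and by 0.24 in Huh7 (difference 1.59, adjusted p = 2.64e-07), and FGB moved by -0.21 there (difference 2.27, adjusted p = 0.000301). HDAC1 rose by 0.78 in HepG2 and fell by 0.39 in Huh7 (difference 1.16, adjusted p = 1.06e-05).

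**Figure D5:**
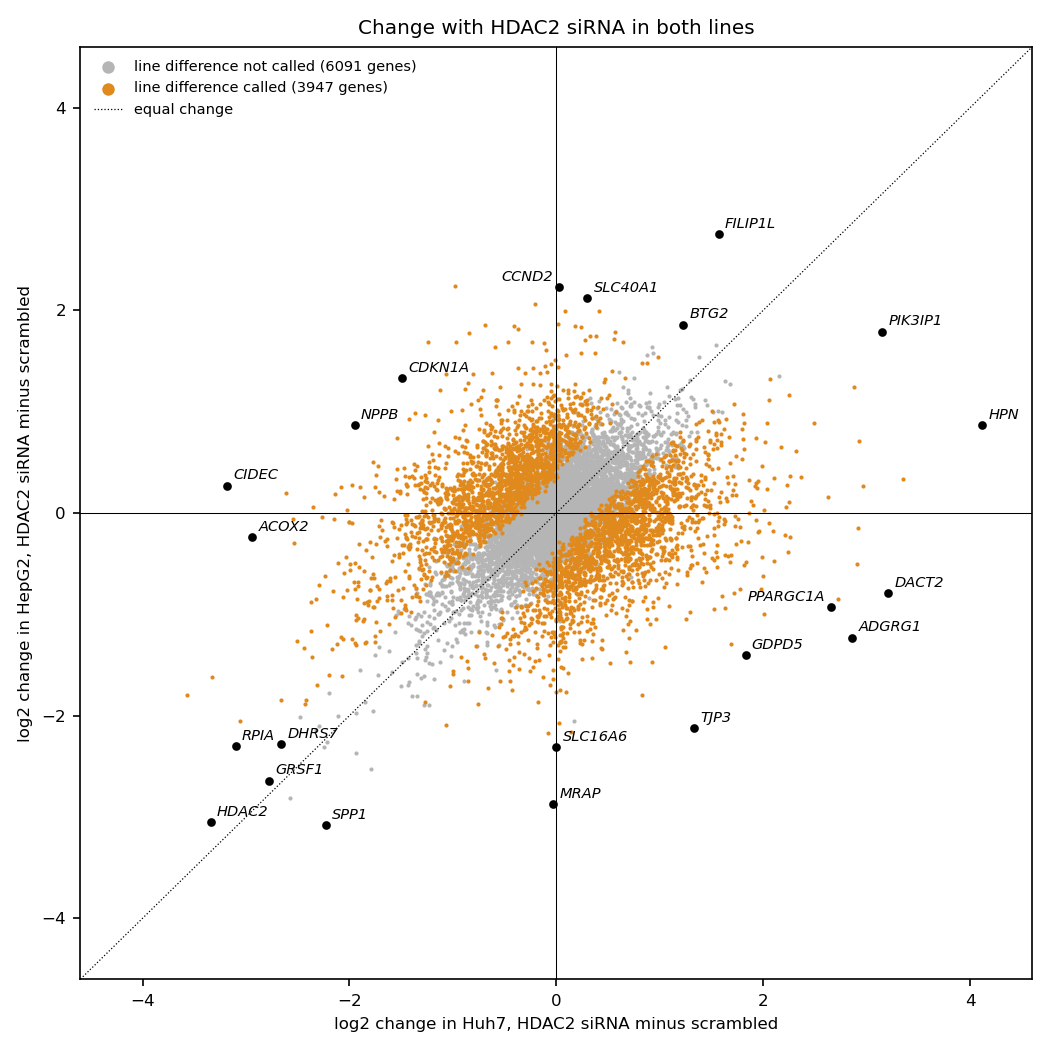
Change with HDAC2 siRNA in HepG2 (vertical axis, log2) against that in Huh7 (horizontal axis, log2) for the 10038 tested genes. Orange points have a called line difference (3947) and grey points do not, and the dotted line marks equal change. HDAC2 and GRSF1 lie near the dotted line and had no called line difference, and MRAP, SLC16A6 and CCND2 near zero in Huh7.

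Among the 8 largest line differences in each direction are genes that moved in opposite directions and genes that moved mainly in Huh7. CDKN1A rose by 1.33 in HepG2 and fell by 1.49 in Huh7 (difference 2.82, SE 0.17, adjusted p = 6.23e-09). NPPB, the natriuretic peptide gene, was above background on 2 of the 4 scrambled arrays. It rose by 0.87 in HepG2 and fell by 1.95 in Huh7, and STOM, a membrane scaffold, rose by 1.69 and fell by 0.97. CIDEC, a lipid droplet protein, was not called in HepG2 (0.27, adjusted p = 0.415) and fell by 3.18 in Huh7, which gave the largest difference with the HepG2 change higher, 3.45 (SE 0.32, adjusted p = 5.49e-07). ACOX2, of peroxisomal oxidation, and the flippase gene ATP9B also moved in Huh7, by -2.94 and -2.61, and were not called in HepG2 (-0.24 and 0.20). HSPB8 rose by 1.86 in HepG2 and fell by 0.69 in Huh7.

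In the other direction ADGRG1, an adhesion receptor, fell by 1.23 in HepG2 and rose by 2.86 in Huh7, a difference of -4.09 (SE 0.26, adjusted p = 7.35e-09). PPARGC1A (-0.93 and 2.66), TRIM50, a ubiquitin ligase gene (-0.85 and 2.72), GDPD5, a phosphodiesterase gene (-1.40 and 1.83), and TJP3 (-2.12 and 1.33) also fell in HepG2 and rose in Huh7. HPN, the protease hepsin, rose in both, by 0.87 and 4.12, with a difference of -3.24 (SE 0.18, adjusted p = 1.58e-09). DACT2, a WNT pathway regulator, and MMP11, a matrix protease, rose by 3.21 and 2.91 in Huh7 and had small falls in HepG2 (-0.79, adjusted p = 0.0302, and -0.50, adjusted p = 0.0243). Both HepG2 calls were lost without siRNA array 3 (DACT2 adjusted p = 0.0637, MMP11 adjusted p = 0.057), siRNA array 4 (0.0708 and 0.0572), scrambled array 1 (0.0575 and 0.0703) or scrambled array 2 (0.0837 and 0.0516). That of DACT2 was also lost without scrambled array 3 (0.063), and that of MMP11 without scrambled array 4 (0.0699). DACT2 was above background on 3 of the 4 siRNA arrays.

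SAHA blocks class I and class II deacetylases, and its effect in HepG2 is set here beside that of the HDAC2 siRNA. SAHA changed 6007 of the 10038 genes (59.8%), in a fit that held the siRNA, scrambled, SAHA and DMSO arrays of HepG2. The siRNA calls come from a fit without the SAHA and DMSO arrays. Counts and shared percentages from such unlike fits do not show which treatment changed more genes. The SAHA effect differed from the siRNA effect for 5343 genes (53.2%), higher in 2423 (45.3%) and lower in 2920. When arrays were scaled to one median, 5628 differences were called and 25.2% of them were higher. Probes were kept by detection on the siRNA and scrambled arrays alone, so genes detected only with SAHA can be missing. In HepG2 52.5% to 54.7% of probes were above background with SAHA and 50.3% to 51.4% with DMSO. How far the filter shifts the balance of rises and falls with SAHA was not tested. Of the 1579 genes that rose with the siRNA 607 (38.4%) also rose with SAHA, or 22.6% of the SAHA rises, beside 26.7% of all tested genes that rose with SAHA, and 397 fell. Of the 1569 that fell 616 (39.3%) also fell with SAHA, or 18.5% of its falls, beside 33.1% of all tested genes that fell with SAHA, and 391 rose.

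HDAC2 itself was not called with SAHA (-0.16, adjusted p = 0.274). S100A9, a calcium-binding protein of inflammation that was above background on 1 of the 4 siRNA arrays, fell by 1.18 with the siRNA and rose by 8.31 with SAHA, a difference of 9.49 (SE 0.30, adjusted p = 5.47e-13). TMEM54, a membrane protein gene, was not well above background on any siRNA array and fell at least 3.26-fold (adjusted p = 6.84e-05), while it rose by 4.21 with SAHA. SMPDL3B, a phosphodiesterase gene, RAB31, a trafficking GTPase, and VGF, a neuropeptide precursor, fell by 1.03, 0.98 and 1.11 with the siRNA and rose by 5.11, 4.95 and 4.64 with SAHA. UBD, a ubiquitin-like modifier, had siRNA signals of 10.41, 10.19, 9.06 and 8.69 against 8.25, 8.64, 8.19 and 7.70, a rise of 1.39 (adjusted p = 0.0153) that did not pass without siRNA arrays 1 and 2 (0.68, adjusted p = 0.0561), and it fell by 3.65 with SAHA.

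Proliferation genes are among those with the lowest SAHA effect relative to the siRNA effect. KIF20A, a mitotic kinesin, moved by -0.30 with the siRNA (adjusted p = 0.0839) and by -4.88 with SAHA, and RRM2, a subunit of ribonucleotide reductase, by 0.06 (adjusted p = 0.744) and -4.39. The phosphate transporter gene SLC17A2 moved by 0.29 (adjusted p = 0.184) and -4.19. All 39 mitosis genes and 41 of 42 DNA replication genes fell with SAHA, against 4 and 8 with the siRNA. These calls come from unlike fits. The medians of the lists were -3.18 and -2.45 with SAHA, against -0.25 and -0.14 with the siRNA. CDKN1A rose with both, by 1.33 and 1.67, and the difference of 0.34 was not called (adjusted p = 0.0725). CCND2, SLC40A1 and RGCC also rose with both, by 2.23 and 2.93, by 2.12 and 2.88 and by 1.82 and 2.76. Their rises were larger with SAHA, with called differences of 0.71 (adjusted p = 0.0248), 0.76 (adjusted p = 0.0126) and 0.94 (adjusted p = 0.00144). AGPAT9 and DHRS7 went opposite ways, with rises of 2.04 and 1.04 under SAHA.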

How the data were processed

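The authors deposited 2 tables of probe intensities on a linear scale, read with GenomeStudio 2011.1 per the submitters' processing notes. One is not normalized and, per the file headers, holds a detection p-value for each of its 24526 probes on each array. The other holds normalized intensities with values down to -32.7, which served as an alternative. No source used here says which steps made it. The intensities without normalization were used. In R 4.3.3 with limma 3.58.1, the normexp method took off a background fitted through the detection p-values (offset 16 added), all 32 arrays were quantile-normalized together, and values were put on the log2 scale.

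A probe was kept with a detection p under 0.05 on at least 4 of the 8 arrays, and each gene was tested by its brightest probe (1663 genes had more than 1 detected probe). Of the probes 20407 bore a current gene symbol, 3263 an older one that was updated, and 856 one kept as it stood. The 8 arrays were fitted alone (lmFit and eBayes, two-sided, Benjamini-Hochberg), since the treated arrays vary more than other groups. The line and SAHA differences, and the calls in Huh7 and with SAHA, came from contrasts over 16 arrays. Where a gene was above background on no array of a group, any signal there under the array's lowest detected value (5.43 to 5.55 log2) was set to that value for an "at least" fold. The procedure was tested on simulated data.

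Named genes are the HDAC family, the 15 largest rises and falls whose groups did not overlap (locus identifiers left out), up to 6 members of each of 46 gene lists by adjusted p, the 8 largest line and SAHA differences in each direction and the 10 widest ranges among treated arrays, with fewer printed in rank order and a few not reported here. Cancer testis genes were listed, and none of 19 on the array was detected well enough to test. Members and lists were chosen with earlier results of these data known. Alternatives left out arrays, changed the background, scaling, filter, probe rule or prior, weighted arrays, added a replicate block or shared the spread of all 32 arrays.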

Additional observations from a re-analysis of the deposited data

Results flagged for a closer look

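In 372 groups of 4 arrays (the 186 genes named or examined, in the siRNA and the scrambled arrays), 12 held 1 array far from the other 3 by Dixon's criterion for 4 values. Chance alone singles out about 1 group in 20. On the siRNA arrays these were NGRN on array 4 (4.54), HSPB8 on array 1 (6.33), SPINT1 on array 3 (5.75) and SLC37A4 on array 2 (12.42). On scrambled array 1 they were PSAT1 (12.08) and MX2 (8.64), and on scrambled array 2 STOM (7.30), ADGRG1 (10.77) and LDHA (14.25). NDC80 stood apart on scrambled array 3 (7.93), and SIRT2 (5.83) and NGRN (12.85) on scrambled array 4. Of these genes, those called in HepG2 kept their call with any 1 array left out.

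The siRNA effect differed between the lines, by the limma test of the difference, for 3947 of 10038 genes. The largest differences with the HepG2 effect higher were 3.45 for CIDEC, 2.82 for NPPB, 2.82 for CDKN1A, 2.81 for ATP9B, 2.70 for ACOX2, 2.65 for STOM, 2.62 for CRYAB and 2.55 for HSPB8. The largest with the HepG2 effect lower were -4.09 for ADGRG1, -4.0 for DACT2, -3.58 for PPARGC1A, -3.58 for TRIM50, -3.45 for TJP3, -3.41 for MMP11, -3.24 for HPN and -3.23 for GDPD5. The cause of these differences was not tested, nor was detection of these genes in Huh7.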

How the results depend on the processing

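The fall of HDAC2 passed under all 23 alternatives, with values from -3.15 to -2.57. The count of called genes ran from 2311 (without scrambled array 2) to 3268 (without siRNA array 1) with 1 array left out. It was 4678 with all 32 arrays in one fit, 3422 without background correction, 2771 with each array scaled to one median, 2960 with the authors' normalized values and 2796 without the detection filter. The genes called at least 2-fold were 545, but 205 without background correction, 347 with an offset of 50 and 853 without siRNA arrays 1 and 2. The genes with a range above 1 on the siRNA arrays were 1221, and 120 without background correction, 378 with an offset of 50, 2086 with the authors' normalized values and 643 among genes detected on all 8 arrays, and in each of the first 3 settings they outnumbered those of the scrambled arrays (0, 29 and 1217). NGRN turned to 0.37 when only probes detected on all 8 arrays were kept, since its dimmer probe then stands for the gene, and EOMES to 0.87 without siRNA arrays 3 and 4, which were its low arrays. The alternatives that leave out pairs of siRNA arrays were chosen after seeing the data. The replicate numbers 1 to 4 are shared by both groups but nothing pairs the arrays, and arrays of the same number did not deviate together (r of -0.053, 0.018, -0.175 and 0.135). With the number as a replicate block 2732 genes were called, 3780 line differences and 5141 SAHA differences. Signal over background limits dim genes: 29 tested genes were detected on no siRNA array and 20 on no scrambled array, and their folds are bounds.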

Other observations

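Other gene lists not described above are given here, beside 31.4% of all tested genes called in HepG2 (15.7% rose and 15.6% fell). The called shares were 27.8% for polycomb and DNA methylation and 37.5% for acetyltransferases and bromodomain genes. They were 50% for neuronal genes, 33.3% each for iron genes and RNA interference, and 14.3% for reference genes. Of 18 genes of the polycomb complexes and of DNA methylation none rose and 5 fell (median -0.10), and 1 rose without siRNA array 2 or 3. BMI1, a subunit of the complex that ubiquitinates histone H2A, had signals of 8.78, 8.85, 9.10 and 9.42 against 10.12, 10.23, 9.75 and 10.38 and fell by 1.08 (adjusted p = 0.00178). PCGF1, a related gene whose product serves in other complexes of this kind, fell by 0.90 (adjusted p = 0.00415). Of 16 acetyltransferase and bromodomain genes 2 rose and 4 fell, and 2 fell without scrambled array 4. NCOA3, a coactivator of nuclear receptors, fell by 1.04 (adjusted p = 0.000666).

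Of 33 neuronal genes listed 8 were tested, and 2 rose and 2 fell. BEX1 rose by 0.71 (adjusted p = 0.00138) and the tubulin gene TUBB2B by 0.89 (adjusted p = 0.00203), with VGF among the falls. The falls were 1 without siRNA array 1 or 2 or any 1 scrambled array. Of 12 iron genes 2 rose and 2 fell, and none fell without scrambled array 1 and 1 without any other scrambled array. Of 9 genes of the RNA interference machinery 2 rose and 1 fell. Of 14 genes often used as references 2 rose and none fell, B2M among the rises, and 1 rose without siRNA array 2 or scrambled array 2, 3 or 4.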
